A study of Sus scrofa with 8 samples.

Results

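MEIS1, MEIS2, MEIS3, PBX2 and PBX3 are homeobox genes whose proteins work as partners of HOX proteins. They were taken by gene name and make up 5 of the 21301 genes in the 8 count matrices. The rule used no measured value of these genes, but earlier results of these data were known when they were chosen.

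The 8 libraries came from pig embryos of 2 breeding groups, Tibetan pigs, labelled ZZ, and a cross labelled DZ (Duroc x Tibetan pigs). Somites were taken at embryonic day (E) 16, E18 and E21 and myotomes, the muscle-forming part of the somite, at E28. Each library held the pooled tissue of 5 embryos of 1 sow, dissociated with collagenase and DNase, and there was 1 library for each stage and breed. The tissue change at E28 and the counting software version at E16 (3.1.0 in both E16 libraries and 3.0.2 in the other 6) were tied to stage, so neither can be told apart from stage. The labels give no transgene, deletion or treatment for any group, and they mention sorting of the cells without naming a gate.

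MEIS and PBX proteins belong to the TALE class of homeodomain proteins, which carry a short insertion between the first and the second helix of the homeodomain. PBX proteins bind DNA next to a HOX protein and sharpen its choice of site, and MEIS proteins bind PBX, hold it in the nucleus and join the complex on DNA. In the embryonic trunk these complexes work with HOX proteins in segment identity, limb formation, hindbrain and spinal cord patterning and the first steps of myogenesis.

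The codons of the recognition helix, the part of the homeodomain that lies in the DNA groove, show how the members group. The 30 bases begin at the phenylalanine codon of the motif that all homeodomains share, were read from the coding sequence in RefSeq's annotation of Sscrofa11.1, and lie in a single exon of each gene. Capitals mark the 3 codons that follow it.
MEIS1: tttATTAATGCCcggagaagaatagtgcag
MEIS2: tttATTAATGCCagaagaagaatagtacag
MEIS3: ttcATTAACGCCcggagacgcatcgtgcag
PBX2: tttGGCAACAAGcggattcgttacaagaaa
PBX3: tttGGCAACAAAcgaatcaggtacaagaag
The 3 MEIS genes shared 22 to 27 of the 30 bases with each other and PBX2 shared 24 with PBX3, whereas a MEIS and a PBX gene shared 9 to 14. Of the 9 bases in capitals, genes of the same family shared 8 or 9 and genes of different families 2 or 3. The stretches lie in exon 10 of MEIS1 (chr3:75490386-75490415, minus strand), exon 10 of MEIS2 (chr1:134217319-134217348, plus strand), exon 11 of MEIS3 (chr6:53179748-53179777, minus strand), exon 7 of PBX2 (chr7:24224197-24224226, minus strand) and exon 6 of PBX3 (chr1:266604033-266604062, plus strand). The genes themselves span chr3:75485024-75625855 (ENSSSCG00000039161), chr1:134013642-134223013 (ENSSSCG00000004795), chr6:53175920-53188455 (ENSSSCG00000003115), chr7:24221565-24226940 (ENSSSCG00000001438) and chr1:266383311-266610646 (ENSSSCG00000005604), in the same order.

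After filters 74147 cells were kept, 5436 to 10956 a library, with 39852689 to 57568895 unique molecular identifiers (UMIs, counted cDNA molecules) a library and a median of 3405 to 6160.5 UMIs a cell. The E16-ZZ library stood apart in its mitochondrial share, with 39.2% of its barcodes over the 10% limit against 1.05% to 9.15% in the other 7. Between 13 and 38 cell barcodes were shared by any pair of libraries. Levels below are CPM, the UMIs of a gene relative to all UMIs of the sum after trimmed-mean (TMM) scaling, and they compare samples for 1 gene, not genes with each other. Because there was 1 library per stage and breed, the spread was estimated over pooled libraries, and adjusted p-values are Benjamini-Hochberg values of edgeR's quasi-likelihood test over all genes tested, called at 0.05.

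In whole libraries, MEIS1, MEIS3 and PBX3 were lowest in the E16 pair and MEIS2 in E28-DZ, while PBX2 lay between 0.441 and 1.29 CPM. MEIS1 had 75.3 and 71.9 CPM at E16 (ZZ and DZ), then 133.5 and 145.4 at E18, then 144 and 116 at E21, and last 131 and 77.5 at E28. MEIS2 had 64.8 and 72.1 CPM at E16, then 123 and 129 at E18, then 126 and 120 at E21, and last 89.6 and 46.7 at E28. The 2 E16 values of MEIS1 lay below all 6 later ones, and those of MEIS2 below all but that of E28-DZ. MEIS3 had 29.4 and 28.2 CPM at E16, then 48.3 and 49.3 at E18, then 64.9 and 50.9 at E21, and last 48.1 and 38.7 at E28. PBX3 had 30.4 and 31.2 CPM at E16, then 51.7 and 55.2 at E18, then 105 and 67.6 at E21, and last 52.4 and 46.2 at E28. For both genes the E16 pair was lowest and the E21-ZZ library highest.

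**Figure D1:**
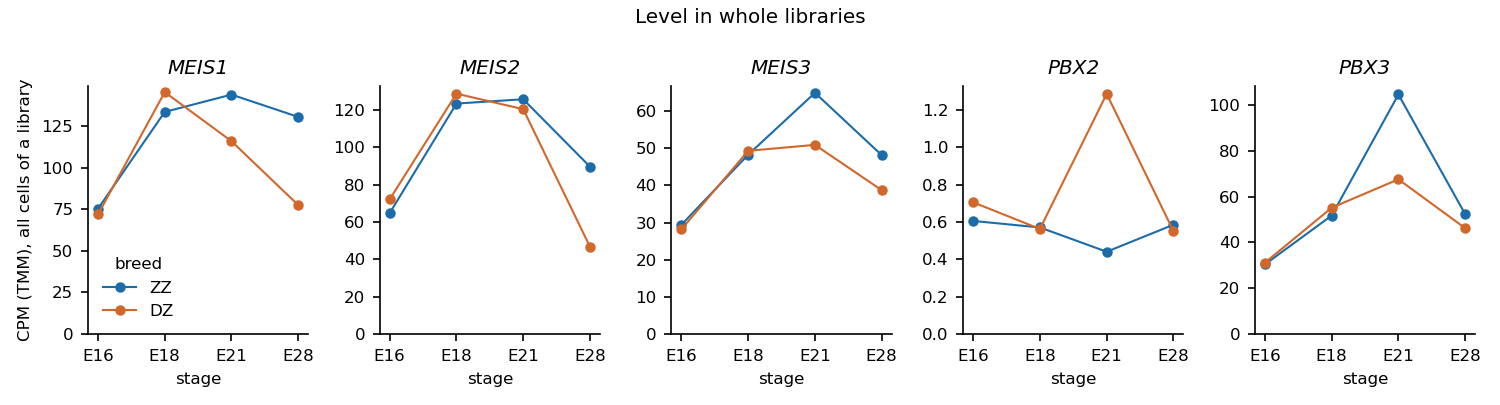
Level of each of the 5 genes (CPM, y axis, separate scale per gene) in the 8 whole libraries by stage (x axis), with ZZ in blue and DZ in orange, 1 point per library and no error bars. The E16 points of MEIS1, MEIS3 and PBX3 lie below the later ones, and PBX3 peaks at E21, at 105 and 67.6 CPM.

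Of the 5 genes, none was called between the 4 late libraries (E21 and E28) and the 4 early ones (E16 and E18), a comparison that called 34.4% of 14683 genes. PBX3 came nearest, with a log2 fold change of 0.68 ± 0.31 (SE, n = 4 and 4, adjusted p = 0.121, edgeR). From E16 to E18, where 4.7% of genes were called, MEIS3 rose by 0.77 ± 0.14 (n = 2 and 2, adjusted p = 0.0352, edgeR). MEIS1 at 0.94 ± 0.21 (adjusted p = 0.0526), MEIS2 at 0.88 ± 0.26 (adjusted p = 0.0882) and PBX3 at 0.80 ± 0.19 (adjusted p = 0.0581) missed the edgeR threshold in that step. PBX3 then rose from E18 to E21 by 0.69 ± 0.19 (adjusted p = 0.0412, edgeR, 21.2% of genes called) and fell from E21 to E28 by 0.80 ± 0.19 (adjusted p = 0.0467, edgeR, 8.53% of genes called). In the last step MEIS2, at -0.89 ± 0.26, was not called (adjusted p = 0.0795, edgeR). The MEIS3 call was lost when any of the 4 libraries of E16 and E18 was left out (adjusted p up to 0.317). The PBX3 rise was lost without each of 6 libraries, all but E21-DZ and E28-ZZ, and the PBX3 fall without each of 7, all but E21-DZ.

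Whole-library levels mix how many cells of a type were present with how much RNA each held, and these cannot be told apart in such sums. Cells were therefore assigned to classes by markers that include no MEIS, PBX or HOX gene. A cell entered a class when at least 3 of the class's markers had a UMI and more of them than of any other class, which placed 46612 cells (62.9%) in 15 classes, named with "-like" because the names rest on these markers alone. In each class 4 or more of its markers were at least 2 times higher than in the other classes, the fewest in neural progenitor-like cells, for which 6 of 8 listed markers were in the matrices. The gate used the same markers, so this is a description and not a separate check of the classes. Of the 8 fibroblast markers, in CPM without scaling, OGN (26.2 to 39.1 early, 140 to 1623 late) and COL6A3 (18 to 65.6 and 90.6 to 135) were higher in every late than in every early library. FBLN1 was lower (600.1 to 726 and 404 to 522), and the ranges of the other 5 overlapped. The part of these markers in that class's results was not tested. All classes but macrophage-like cells had at least 20 cells in 3 or more libraries and were summed per library. The share of cells in no class (ZZ and DZ) was 46.1% and 52.8% at E16 and 54.5% and 56.1% at E18. At E21 it was 33.6% and 32.6% and at E28 13.6% and 16.4%. The part of this in the stage differences within classes was not tested.

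Over the 6 libraries with at least 20 neuron-like cells, all 4 measurable members were higher there than the mean of the other classes, with the largest class difference for MEIS2, MEIS3 and PBX3. For MEIS1, MEIS2 and PBX3 the neuron-like level was above that of fibroblast-like cells in both E21 libraries but not in all those of E18 and E28. There the neuron-like levels of MEIS1 and PBX3 lay below those of fibroblast-like cells of the same library, with MEIS1 at 73.1, 108, 32.5 and 23.1 CPM against 155.4, 150.4, 161 and 112 (E18-ZZ, E18-DZ, E28-ZZ and E28-DZ) and PBX3 at 19.1, 37.9, 53.1 and 53 against 56.5, 62.3, 55.9 and 56.2. MEIS2 lay below in 3 of these 4 libraries, at 127.1 against 139 CPM in E18-ZZ, 67.9 against 104 in E28-ZZ and 53.7 against 60.5 in E28-DZ, and above in E18-DZ, at 148.9 against 126. MEIS3 stood 2.10 ± 0.16 above the mean of the other 13 classes on the log2 scale (n = 6 libraries, adjusted p = 1.86e-19, edgeR), PBX3 1.55 ± 0.22 (adjusted p = 7.19e-09), MEIS2 1.44 ± 0.21 (adjusted p = 6.12e-09) and MEIS1 1.06 ± 0.26 (adjusted p = 0.000319). The comparison called 57% of 12038 genes, so a call there was common. Its spread was that of 85 sums of a class and a library after each library's level, not that between the 6 libraries. MEIS1 lost its call without E21-DZ (0.56, adjusted p = 0.104, edgeR), and the other 3 kept theirs under each of the 20 alternative settings. No setting left out both E21 libraries, so the calls were not tested without them. In E18-ZZ the PBX3 level of neuron-like cells lay below that of every other class summed there, which was so in no other library.

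Within neuron-like cells the levels of all 4 genes were highest at E21. PBX3 had 19.1 and 37.9 CPM at E18 (ZZ and DZ), then 309 and 235 at E21, and last 53.1 and 53 at E28. MEIS2 had 127.1 and 148.9 CPM at E18, then 260 and 294 at E21, and last 67.9 and 53.7 at E28. For both genes the E21 pair lay above the other 4 libraries without overlap. MEIS1 had 73.1 and 108 CPM at E18, then 228 and 268 at E21, and last 32.5 and 23.1 at E28, and MEIS3 had 89 and 108, then 164 and 152, then 94.5 and 99.9. With 2 libraries a stage, no test was made within the class. Of the 7 neuronal markers, GAP43, INA, DCX, STMN2 and ELAVL3 were also lower at E18 than in any later library of the class, ELAVL4 overlapped, with E18-DZ above E21-DZ, and NHLH1 was at or near 0. STMN2 had 2580 and 3036 CPM without scaling at E18, then 7961 and 6923 at E21, and last 7112 and 8420 at E28, and the part of these marker levels in the members' differences was not tested.

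Neural progenitor-like cells, with at least 20 cells in the 6 libraries to E21, had PBX3 at 14.3 and 2.02 CPM at E16, then 24.2 and 25.3 at E18, and last 78.7 and 95.4 at E21, in the order of the stages with no overlap. The E16 levels rested on 5 and 1 UMIs. Of the 6 markers of this class, FABP7 was also higher at E21 (645 to 747 CPM) than in any earlier library (42.9 to 107) and NKX6-1 lower (124 to 157 against 161 to 250.4), without scaling, and their part was not tested. Their MEIS3 level ran from 31.7 to 59.6 CPM and exceeded the other classes by 0.64 ± 0.20 (n = 6, adjusted p = 0.0101, edgeR, 29.6% of genes called), whereas the other members were not called.

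**Figure D2:**
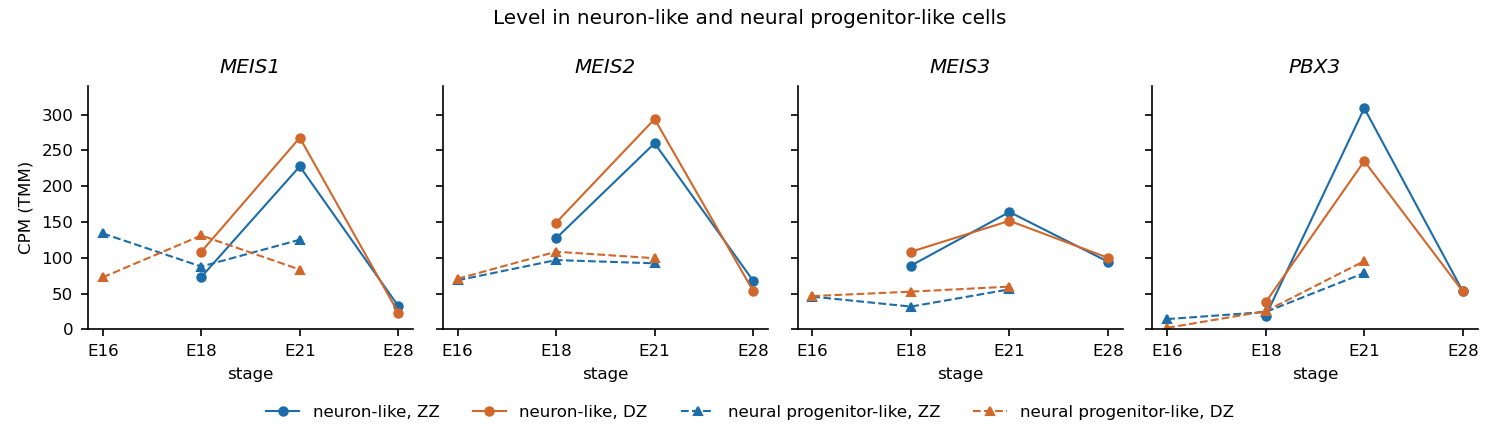
Level (CPM, y axis) of 4 genes by stage (x axis) in neuron-like cells (circles, solid lines) and neural progenitor-like cells (triangles, dashed lines), blue for ZZ and orange for DZ, 1 point per library. All 4 genes are highest in neuron-like cells at E21, and PBX3 in neural progenitor-like cells stands at 78.7 and 95.4 CPM at E21.

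Neuron-like cells held 17.4% of all UMIs in E21-ZZ and 7% in E21-DZ, but 52.4% and 28.9% of the PBX3 UMIs. For MEIS3 they held 44.8% and 24.7%, for MEIS2 36.7% and 20.2%, and for MEIS1 28.1% and 19.1%. In the other 6 libraries they held at most 2.57% of all UMIs. With the neuron-like cells left out, an alternative chosen after the data were seen, the PBX3 difference between E18 and E21 was 0.14 (adjusted p = 0.47, edgeR) and that between E21 and E28 was -0.24 (adjusted p = 0.267, edgeR). From E16 to E18, MEIS3 was at 0.76 without them (adjusted p = 0.0257, edgeR), and MEIS1 (0.94, adjusted p = 0.0397) and PBX3 (0.81, adjusted p = 0.02) then also passed.

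Pooled over libraries, neuron-like cells also had the highest share of cells with a UMI for these 4 genes, but most of those cells came from E21. With each cell thinned to 1500 UMIs and 812 shallower cells left out, PBX3 had a UMI in 29.8% of neuron-like cells (95% exact Clopper-Pearson interval 28.2% to 31.5%, counting error only) and MEIS2 in 32.2%, MEIS1 in 28.4% and MEIS3 in 23%. Without thinning the shares were 51.3%, 55.4%, 49.5% and 49% at a median of 3974.5 UMIs. In E21-ZZ the thinned PBX3 share was 36.3% in neuron-like and 0% of 50 erythroid-like cells, and in E21-DZ 29.9% and 3.28% of 61, at median depths of 3985 and 3895 UMIs in neuron-like and 7716 and 12283 in erythroid-like cells. In those erythroid-like cells the globins HBZ and HBE1 had 188531 and 292071 CPM without scaling in E21-ZZ, and 182531 and 309187 in E21-DZ. Fewer of their UMIs were left for other genes, and the part of this in the shares was not tested. The 0% of 50 cells leaves room for a low share. Within single libraries the order depended on the stage. The thinned PBX3 share of neuron-like cells was 8% and 2.38% at E18 and 4.44% and 5% at E28, against 8.68% and 8.85%, then 8.22% and 8.96%, in fibroblast-like cells. The MEIS3 share was higher in neuron-like than in fibroblast-like cells in all 6 libraries, at 15.6% to 24.6% against 7.29% to 8.61%. A MEIS gene and PBX3 had a UMI in the same cell in 24.9% and 24.4% of the E21 neuron-like cells, against 0.794% to 4.44% at E18 and E28. Separately, a MEIS gene had a UMI in 62.9% and 68.5% of the E21 neuron-like cells and PBX3 in 36.3% and 29.9%. Whether joint detection exceeded what these separate shares give was not tested. At this thinned depth a cell without a UMI may still express the gene.

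Fibroblast-like cells, the connective tissue class and the largest with 22771 cells, also had all 4 members above the other classes. MEIS1 was 1.13 ± 0.21 higher on the log2 scale (n = 8, adjusted p = 1.06e-05, edgeR, 23.8% of genes called), MEIS2 0.72 ± 0.17 (adjusted p = 0.000741), MEIS3 0.63 ± 0.14 (adjusted p = 0.000179) and PBX3 0.50 ± 0.18 (adjusted p = 0.0375). MEIS1 ranged from 68.2 CPM in E16-ZZ through a median of 143.3 to 178 in E21-ZZ, and only the E16 pair lay below 112. PBX3 ranged from 40.7 to 69.6 CPM with a median of 56.3, and its call was lost without E28-ZZ or E28-DZ. No member was called between late and early libraries of this class, a comparison that called 29.2% of 12380 genes. MEIS3 (0.31 ± 0.17, adjusted p = 0.201, edgeR), MEIS1 (0.35 ± 0.28, adjusted p = 0.372) and PBX3 (0.23 ± 0.17, adjusted p = 0.311) had positive values there.

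**Figure D3:**
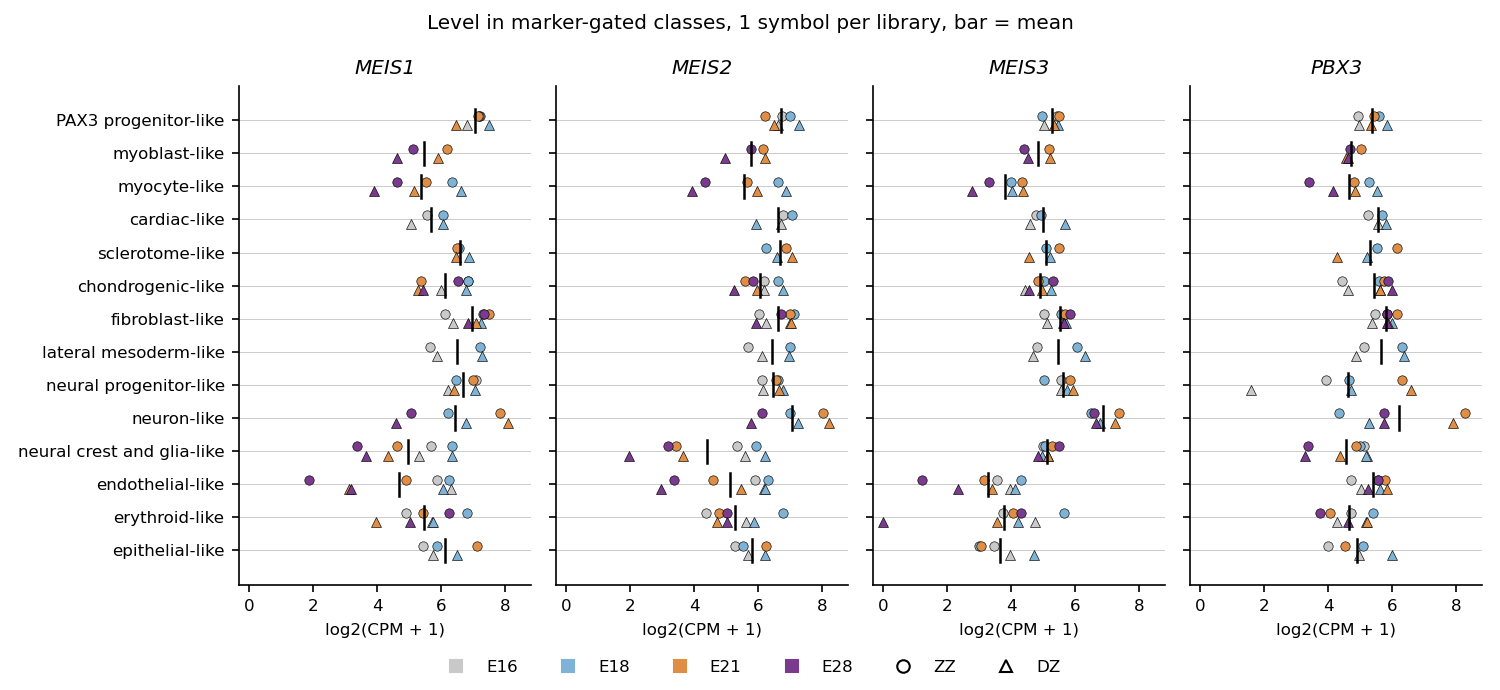
Level of 4 genes as log2(CPM + 1) (x axis) in 14 marker-gated classes (rows), 1 symbol per library, coloured by stage, circles for ZZ and triangles for DZ, with the mean of the log2 values of each class as a bar. The neuron-like mean lies furthest to the right for MEIS2, MEIS3 and PBX3, and the E28 symbols of endothelial-like and neural crest and glia-like cells lie far to the left for MEIS1 and MEIS2.

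In the order of the mean of log2(CPM + 1) over a class's libraries, MEIS1 was highest in PAX3 progenitor-like, fibroblast-like, neural progenitor-like and sclerotome-like cells and lowest in endothelial-like cells. MEIS2 began with neuron-like, PAX3 progenitor-like and sclerotome-like cells and ended with neural crest and glia-like cells. MEIS3 began with neuron-like and neural progenitor-like and ended with epithelial-like and endothelial-like cells, and PBX3 began with neuron-like, fibroblast-like and lateral mesoderm-like cells and ended with neural crest and glia-like cells. The exact two-sided sign-flip permutation test over shared libraries cannot separate neighbours in these orders. Its smallest possible p with 8 shared libraries, 0.00781, came to 0.508 when adjusted over the 65 pairs, and pairs that shared 4 libraries could not go below 0.125. The order is therefore given as a description.

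Among the other classes, MEIS3 alone was higher in lateral mesoderm-like cells (0.63 ± 0.19, n = 4, adjusted p = 0.0189, edgeR, 12.1% of genes called), where it had 27 and 24.5 CPM at E16 and 65.6 and 77.6 at E18, a call lost without E18-ZZ or without E18-DZ. Of the 9 markers of this class, 3 were higher in both E18 than in both E16 libraries, among them WT1 (82.6 and 96.8 against 13.2 and 13.8 CPM without scaling), and 4 were lower, among them FOXF1 (16.1 and 21.8 against 33.7 and 39), and their part was not tested. PBX3 there, at 0.57 ± 0.26, was not called (adjusted p = 0.171, edgeR). In epithelial-like cells MEIS3 (-1.28 ± 0.24, n = 5, adjusted p = 1.41e-05, edgeR, 22.9% of genes called) and MEIS2 (-0.71 ± 0.27, adjusted p = 0.046) were lower, and the MEIS2 call was kept under 6 of 20 alternative settings. In cardiac-like, sclerotome-like and chondrogenic-like cells no member was called against the other classes, where 20.6%, 2.38% and 19.9% of genes were.

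In the skeletal muscle lineage the MEIS genes were called lower in differentiated cells, and PBX3 differed in the same direction without a call between these classes. The order runs from PAX3 progenitor-like cells, named for the factor that marks dermomyotomal muscle progenitors, through myoblast-like cells to myocyte-like cells, which express MYOG and muscle structural genes. PAX3 progenitor-like cells had more MEIS1 than the other classes (0.84 ± 0.25, n = 6, adjusted p = 0.0214, edgeR, 8.27% of genes called), a call lost without E16-ZZ or without E18-DZ. Their MEIS1 level was 148 and 110 CPM at E16, then 145 and 178 at E18, and last 140 and 87 at E21. Myocyte-like cells had 79.9 and 97.3 CPM of MEIS1 at E18, then 44.8 and 34.3 at E21, and last 23.5 and 13.9 at E28. All 7 myocyte markers were lower at E18 than in any later library of the class, such as MYOG with 39.3 to 45.2 CPM against 162 to 364 and MYL1 with 477 to 508 against 2187 to 2423, without scaling, and their part in the MEIS1 levels was not tested. Myoblast-like cells, with 20 or more cells from E21 on, had 71.2 and 58.7 CPM at E21 and 34 and 23.9 at E28. Of their 8 markers 6 were higher in both E28 than in both E21 libraries, among them MSC (415 and 1119 against 106 and 129 CPM without scaling) and MYOD1 (211 and 219 against 54.9 and 125), and their part was not tested. In each of the 4 libraries with at least 20 cells of both, MEIS1 was lower in myocyte-like than in PAX3 progenitor-like cells.

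Compared within libraries, myocyte-like against PAX3 progenitor-like cells differed by -1.14 ± 0.15 for MEIS1 (adjusted p = 1.17e-05, edgeR, 35.2% of 10556 genes called), -1.30 ± 0.23 for MEIS3 (adjusted p = 0.000223) and -0.55 ± 0.17 for MEIS2 (adjusted p = 0.0186). PBX3, at -0.57 ± 0.23, was not called (adjusted p = 0.0613, edgeR), though it too was lower in each library with at least 20 cells of both classes. Myocyte-like against myoblast-like cells called the same 3 genes, at -0.57 ± 0.16 for MEIS1 (adjusted p = 0.00686, edgeR, 39.3% of genes called), -1.21 ± 0.20 for MEIS3 (adjusted p = 7.17e-05) and -0.72 ± 0.17 for MEIS2 (adjusted p = 0.0024), while PBX3 was at -0.36 ± 0.20 (adjusted p = 0.182). Between myoblast-like and PAX3 progenitor-like cells, which both reached 20 cells in 2 libraries, no member was called where 3.42% of genes were, and MEIS1 came nearest at -0.58 ± 0.18 (adjusted p = 0.096, edgeR). The MEIS2 difference from PAX3 progenitor-like cells lost its call without E21-ZZ or without E21-DZ.

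Against all other classes, myocyte-like cells were lower in MEIS3 (-1.38 ± 0.25, n = 6, adjusted p = 4.11e-06, edgeR, 44.9% of genes called) and in PBX3 (-0.93 ± 0.31, adjusted p = 0.00941). No member was called in myoblast-like cells, where 22.3% of genes were, with PBX3 at -0.80 ± 0.31 (adjusted p = 0.0551, edgeR). In the E21 libraries, which held all 3 classes, the thinned share of cells with a MEIS1 UMI was 17.6% and 15.4% in PAX3 progenitor-like, 11.5% and 10.3% in myoblast-like and 5.42% and 4.35% in myocyte-like cells. Without thinning these shares were 40.7% and 34.1%, 29.6% and 28.6%, and 21.4% and 16.2%.

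**Figure D4:**
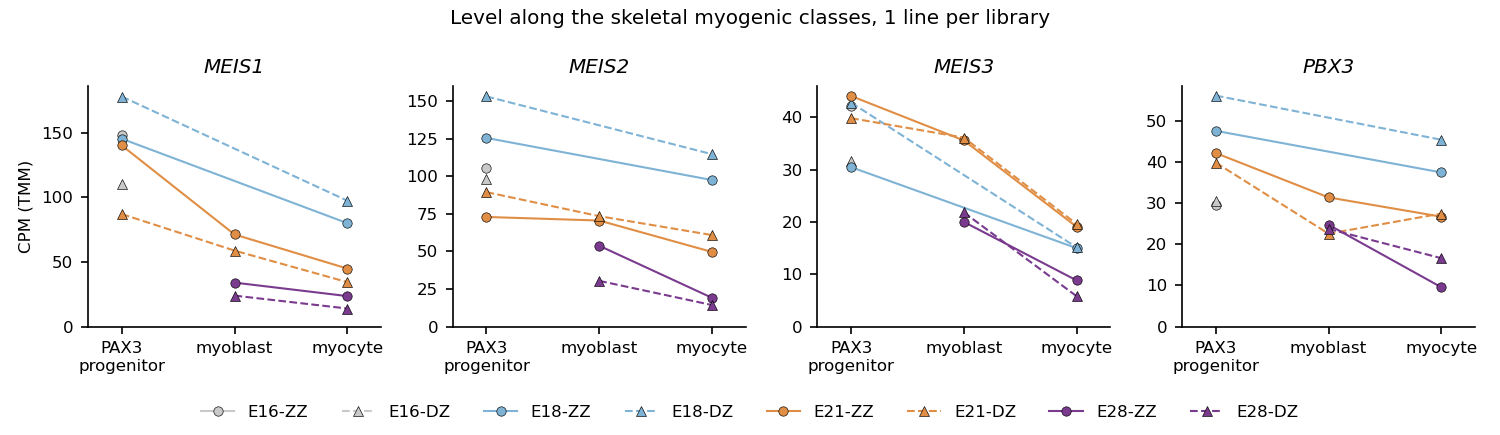
Level (CPM, y axis) of 4 genes along the 3 skeletal myogenic classes (x axis), 1 line or point per library, coloured by stage, solid lines and circles for ZZ and dashed lines and triangles for DZ. All 4 genes are lower in myocyte-like than in PAX3 progenitor-like cells in all 4 libraries with at least 20 cells of both, and the E28 lines are lowest for MEIS1.

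In endothelial-like cells, which line vessels, the 3 MEIS genes were lower late than early and PBX3 was not called. MEIS1 had 57.7 and 77.8 CPM at E16 and 74 and 66 at E18, then 28.9 and 7.76 at E21 and 2.7 and 8.17 at E28. MEIS2 had 58.4, 71.6, 78.4 and 73.8 CPM in the early libraries and 22.9, 42.7, 9.43 and 6.8 in the late ones. Early and late libraries did not overlap for either gene, nor for MEIS3, with 10.9 to 18.8 CPM early and 1.35 to 9.7 late. PBX3 ran from 25 to 48.4 CPM early and from 36.7 to 56.3 late.

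The late against early log2 fold change in endothelial-like cells was -2.34 ± 0.41 for MEIS1 (n = 4 and 4, adjusted p = 0.00241, edgeR, 27.3% of genes called), -1.79 ± 0.37 for MEIS2 (adjusted p = 0.00556), -1.33 ± 0.43 for MEIS3 (adjusted p = 0.0387) and 0.43 ± 0.26 for PBX3 (adjusted p = 0.236). The E28 levels of MEIS1 in these cells were far under those of the whole E28 libraries, 131 and 77.5 CPM. The MEIS1 call held under all 19 alternative settings that were fitted, and the 5% mitochondrial limit was not among them. That of MEIS2 was lost without both E28 libraries (-1.10, adjusted p = 0.0501, edgeR). The MEIS3 call was lost without each of 5 libraries, E16-DZ, E18-ZZ, E18-DZ, E28-ZZ and E28-DZ. Late sums rested on 42 to 101 cells and early ones on 213 to 895. All 8 endothelial markers were present in every library, and 6 of them were higher in every late than in every early library. CLDN5 ran from 267 to 425 CPM early and from 1171 to 2588 late, and PECAM1 from 419 to 547 and from 759 to 1284, without scaling, and the part of these marker differences was not tested.

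Against the other classes endothelial-like cells were lower in MEIS3 (-1.39 ± 0.19, n = 8, adjusted p = 2.57e-09, edgeR, 50.5% of genes called), MEIS1 (-0.69 ± 0.26, adjusted p = 0.0194) and MEIS2 (-0.63 ± 0.21, adjusted p = 0.00891). PBX3 was at 0.09 ± 0.21 (adjusted p = 0.792). The MEIS1 and MEIS2 calls were each kept under 11 of 20 alternative settings, and under the 5% mitochondrial limit no MEIS call remained.

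Neural crest and glia-like cells, marked by SOX10, also had less MEIS1 and MEIS2 at the later stages. MEIS2 had 39.5 and 47.6 CPM at E16, then 59.7 and 73.5 at E18, then 9.86 and 11.5 at E21, and last 8.06 and 2.88 at E28. MEIS1 had 50.1 and 38.7 CPM at E16, then 79.8 and 80.2 at E18, then 23.5 and 19.2 at E21, and last 9.4 and 11.5 at E28. For both genes all 4 late libraries lay under all 4 early ones, while MEIS3 stayed between 27.8 and 44.3 CPM with overlap. The E28 levels rested on 6 and 3 UMIs of MEIS2 and on 7 and 12 of MEIS1 (ZZ and DZ).

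The late against early fold change there was -2.64 ± 0.29 for MEIS2 (n = 4 and 4, adjusted p = 3.43e-05, edgeR, 29.6% of genes called), -1.83 ± 0.29 for MEIS1 (adjusted p = 0.000459) and -0.85 ± 0.29 for PBX3 (adjusted p = 0.0388), with MEIS3 at 0.22 ± 0.18 (adjusted p = 0.391). The calls of MEIS1 and MEIS2 held under all 20 alternative settings. The PBX3 call was kept under 8 of 20 settings. It was lost without each of 6 libraries, all but E18-ZZ and E21-ZZ. Among the other settings that lost it were the 5% mitochondrial limit, no removal of doublets and a gate of at least 2 markers. Some markers of the class moved as well, in CPM without scaling. SOX10 was higher late (322 to 491) than early (163 to 312), as were CDH19 (107 to 173 against 28 to 39.5) and SCRG1 (644 to 906 against 415 to 542). TFAP2B ran from 156 to 270 early and from 113 to 179 late, ERBB3 from 1046 to 1337 and from 906 to 1411, and FOXD3 was at or near 0 throughout. The part of these markers in the members' differences was not tested. Against the other classes MEIS2 was lower, at -1.30 ± 0.23 (n = 8, adjusted p = 4.03e-06, edgeR, 25.5% of genes called), as were MEIS1 at -0.93 ± 0.26 (adjusted p = 0.00529) and PBX3 at -0.64 ± 0.24 (adjusted p = 0.0354), and MEIS3 was at 0.16 ± 0.16 (adjusted p = 0.55). The MEIS1 call was lost without E21-ZZ, and the PBX3 call without each of the 6 libraries of E18, E21 and E28.

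Chondrogenic-like cells, the cartilage-forming class, had less MEIS1 (-0.995 ± 0.25, n = 4 and 4, adjusted p = 0.0201, edgeR, 21.2% of genes called) and less MEIS2 (-0.85 ± 0.20, adjusted p = 0.0142) late than early. MEIS1 had 114 and 63.2 CPM at E16, then 112 and 109 at E18, then 40.3 and 37.7 at E21, and last 90.9 and 42.2 at E28, so that the E28-ZZ library lay within the early range. MEIS2 had 70.8 to 109 CPM early and 36.9 to 61.8 late, without overlap. Both calls were lost without E18-ZZ or E18-DZ, and that of MEIS1 also without E16-ZZ. With a gate of at least 4 markers both calls were lost as well. Neither was kept with a gate of at least 2 more markers than any other class. PBX3 (0.54 ± 0.25, adjusted p = 0.14, edgeR) was not called. Several cartilage markers of the class had higher values late, in CPM without scaling. MATN4 had 14.7 to 34.8 CPM early and 1036 to 3176 late, ACAN 14.7 to 34 and 109 to 473, and COL9A3 1.05 to 2.45 and 22.2 to 432, whereas HAPLN1 overlapped, at 69.6 to 138 early and 19.3 to 416 late. The part of these markers in the members' differences was not tested.

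In erythroid-like cells no member was called between periods, where 5.1% of genes were, and MEIS3 and PBX2 did not pass the filter on low counts. MEIS2, at -0.93 ± 0.52 (adjusted p = 0.307, edgeR), had 19.7 to 109 CPM early and 25.4 to 31.4 late. The 1088 erythroid-gated cells of E18-ZZ carried 110 CPM of MEIS1, against 52.7 in the 163 cells of E18-DZ. They held 87209 CPM of the embryonic globin HBE1 without scaling, against 239911 in E18-DZ, and each of the 9 erythroid markers was lowest there among the 8 libraries, so that the class name is in doubt for these cells. Without these cells, an alternative added after the data were seen, MEIS2 was at -0.22 between periods (adjusted p = 0.808, edgeR). Against the other classes MEIS2 was lower (-0.63 ± 0.25, n = 8, adjusted p = 0.0465, edgeR, 29.2% of genes called), a call kept under 9 of 20 alternative settings, and it was at -0.98 and still called without those cells of E18-ZZ.

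**Figure D5:**
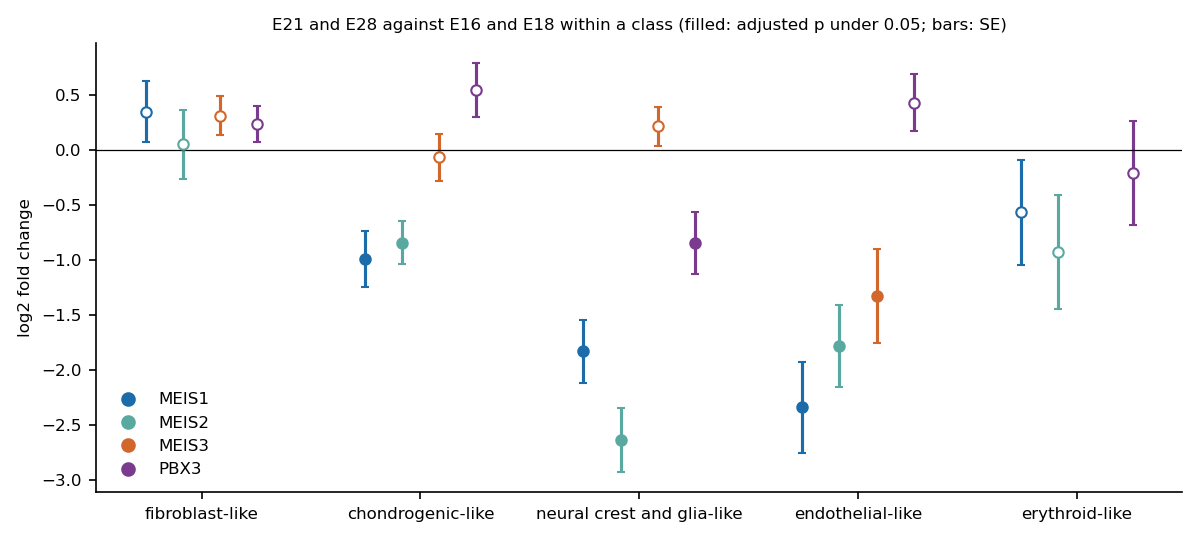
Log2 fold change of late (E21 and E28) against early (E16 and E18) libraries (y axis) for 4 genes in 5 marker-gated classes (x axis), with the edgeR estimate as a point, its SE as the bar and filled symbols for adjusted p under 0.05. MEIS1 and MEIS2 lie below 0 and are filled in chondrogenic-like, neural crest and glia-like and endothelial-like cells, and no gene is filled in fibroblast-like cells.

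Whether these stage differences differed between classes was tested in 1 fit over the 5 classes that all 8 libraries held, with the library as a factor, setting each class's late minus early effect against the mean of the other 4. The test was added after the data were seen. The values of a gene cancel out over the classes by construction, so a positive value in some classes comes with negative ones in others. MEIS1 differed in fibroblast-like cells by 1.91 ± 0.29 (adjusted p = 2.41e-05, edgeR, 12.1% of 11510 genes called) and in endothelial-like cells by -1.66 ± 0.44 (adjusted p = 0.01, edgeR, 12.7% called). MEIS2 differed in fibroblast-like cells by 1.74 ± 0.21 (adjusted p = 1.14e-06, edgeR) and in neural crest and glia-like cells by -1.76 ± 0.32 (adjusted p = 0.000182, edgeR, 11.5% called). MEIS3 was at 0.96 ± 0.24 in fibroblast-like cells (adjusted p = 0.00604, edgeR) and at 0.82 ± 0.27 in neural crest and glia-like cells (adjusted p = 0.0462), and PBX3 was at -1.06 ± 0.27 in the latter (adjusted p = 0.00812) and at 0.73 ± 0.24 in chondrogenic-like cells (adjusted p = 0.0491, 8.81% called). Erythroid-like cells gave no call (9.45% of genes called). Without the erythroid-gated cells of E18-ZZ, the calls of MEIS3 in neural crest and glia-like and of PBX3 in chondrogenic-like cells were lost (adjusted p = 0.0591 and 0.0775, edgeR), and MEIS2 and MEIS3 in endothelial-like cells passed (adjusted p = 0.041 and 0.0186). The endothelial MEIS2 effect, at -0.74 ± 0.31, was not called (adjusted p = 0.113, edgeR). For MEIS1, MEIS2 and MEIS3 in fibroblast-like cells, a positive value stood beside own effects of 0.35, 0.05 and 0.31 that were not called. The same held for MEIS3 in neural crest and glia-like cells (own effect 0.22) and for PBX3 in chondrogenic-like cells (0.54).

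PBX2 was near the limit of detection throughout. It had 21 to 60 UMIs a library, from 0.441 to 1.29 CPM with E21-DZ highest, and passed the filter on low counts only in the fits of whole libraries, where it was not called. In the classes it reached 73 UMIs in fibroblast-like cells and at most 19 in any other, and had 0 UMIs in neural progenitor-like cells, which, at 3 counts of the total, allows a share of up to 0.457% of those 656 cells with a UMI at 1500 UMIs. Its thinned share was 0% to 0.455% in every class, and no difference between classes was detectable at this depth.

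Breed was compared within stages. None of the 5 genes was called between DZ and ZZ whole libraries, nor was any of the 15119 genes (0% called by edgeR, with 918 at an unadjusted p under 0.05, and 57 calls by DESeq2). The members' log2 differences ran from -0.26 for MEIS1 to 0.41 for PBX2 (adjusted p from 0.81 to 0.866, n = 4 and 4).

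Over the 85 sums of a class and a library, which share libraries and depth, MEIS1 and MEIS2 varied together more closely than any other pair of members (Pearson's r = 0.847 on log2(CPM + 1), a description without a test), and each was the closest of 5561 genes to the other. PBX3 was closer to MEIS2 (r = 0.509) than to MEIS1 (0.373) or MEIS3 (0.349). After MEIS2, the genes most like MEIS1 included NSG1 (0.72) and EPHA4 (0.693), and after MEIS1 those most like MEIS2 included SLIT2 (0.654), NSG1 (0.648) and DSP (0.626). Those most like MEIS3 included NSG1 (0.788), CNTFR (0.779) and ARMH4 (0.773), and those most like PBX3 included ZMIZ1 (0.544), KIFAP3 (0.527), AKAP12 (0.518) and REV3L (0.516). For PBX2, whose sums held 0 to 18 UMIs, the highest value was 0.453, for RBP4.

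Related TALE genes and partners were counted over a list of 14. Between late and early whole libraries 4 of 13 tested were higher and none lower, led by the tendon factor MKX (4.02, adjusted p = 0.00219, edgeR), IRX2 (1.96, adjusted p = 0.0053) and IRX1 (1.38, adjusted p = 0.0188), where 34.4% of all genes were called in either direction, while the median over the 13 was 0.28 and that over all genes 0.02. In neuron-like cells 2 of 11 were higher, IRX3 (1.30, adjusted p = 0.0118, edgeR) and IRX1 (0.99, adjusted p = 0.00842), and 3 were lower, TGIF2 (-1.85, adjusted p = 6.35e-13), PBXIP1 (-1.66, adjusted p = 1.76e-12) and TGIF1 (-1.60, adjusted p = 1.22e-09), so that 5 of 11 were called where 57% of all genes were. In fibroblast-like cells 7 of 11 were higher and none lower, against 23.8% of all genes called, and in endothelial-like cells 1 was higher and 6 lower, against 50.5%. In the endothelial-like comparison of periods 1 of 7 was called, TGIF1 at 1.04 (adjusted p = 0.00316, edgeR), and in that of neural crest and glia-like cells 0 of 6, where 27.3% and 29.6% of all genes were called.

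Of the 36 HOX genes in the matrices, the DNA-binding partners of the members, 27 were tested between classes. In neuron-like cells 17 were higher and none lower, where 57% of all genes were called in either direction and 30.4% were higher, led by HOXB8 (2.9, adjusted p = 1.15e-20, edgeR), HOXB9 (2.36, adjusted p = 5.32e-11) and HOXB5 (2.24, adjusted p = 2.89e-14). In fibroblast-like cells 15 were higher and none lower, in chondrogenic-like cells 17 and none, and in cardiac-like cells none and 15, where 23.8%, 19.9% and 20.6% of all genes were called. In endothelial-like cells 4 were higher and 11 lower, near the 50.5% of all genes called, led by HOXC8 (-3.04, adjusted p = 4.42e-11, edgeR). Myocyte-like against PAX3 progenitor-like cells had 2 of 24 higher and 12 lower, against 35.2% of all genes called. The lower ones were led by HOXA10 (-3.23, adjusted p = 0.0099, edgeR) and HOXC9 (-2.37, adjusted p = 1.09e-06). Over all cells of the libraries with at least 20 cells of both classes, HOXA10 had 102 and 2 UMIs at E18 (ZZ and DZ) and 124 and 1154 at E21. How far its difference rested on 1 library was not tested. In neural crest and glia-like cells 9 of 19 HOX genes were higher late than early and 1 was lower, against 29.6% of all genes called, led by HOXC9 (3.31, adjusted p = 0.000153, edgeR) and HOXD8 (3.27, adjusted p = 2.37e-05), beside the lower MEIS1 and MEIS2 of the same cells. In endothelial-like cells 2 of 17 were higher late, HOXD8 (1.94, adjusted p = 0.00416, edgeR) and HOXB7 (1.57, adjusted p = 0.00739), and 1 was lower, HOXD1 (-3.38, adjusted p = 0.00165), below the 27.3% of all genes called.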

How the data were processed

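The deposited matrices hold UMI counts per gene and cell barcode, which the authors made from 10x Chromium 3' v3 reads with Cell Ranger (3.1.0 for the E16 libraries, 3.0.2 for the others, per the file headers) against Sscrofa11.1 with Ensembl release 98. Of 90688 barcodes, those with at least 200 genes, at most 30000 UMIs and at most 10% of UMIs in 13 mitochondrial genes were kept, and the highest Scrublet doublet scores were removed at 0.8% per 1000 barcodes. Counts were summed per library, or per class and library (at least 20 cells), and tested with edgeR 4.0.16 (filterByExpr, TMM, quasi-likelihood, Benjamini-Hochberg over all genes). Breed, library or stage entered as factors. The script was tested on simulated data. All 5 genes were described in every comparison, with up to 3 called genes per direction from the lists of 14 TALE genes and 36 HOX genes and the 5 genes most alike among those with a mean of at least 20 CPM. The members, lists, markers and alternatives were chosen with earlier results of these data known. Pools of 5 embryos of 1 sow are not separate animals per group, so p-values of the whole-library and within-class fits measure the spread between these libraries. In fits with the library as a factor, they measure the spread of class sums that remains after each library's own level. Those fits treat the class sums of 1 library as separate. The study's own per-cell tests were not repeated, because cells are not replicates. Strand use in counting was not given in the sources used here. Some genes that these rules name are not reported here.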

Additional observations from a re-analysis of the deposited data

Results flagged for a closer look

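Among 60 sets of 4 early or 4 late libraries, 3 held a library whose gap to its nearest neighbour exceeded Dixon's 95% limit, and chance flags about 1 in 20. MEIS1 in chondrogenic-like cells was low in E16-DZ, at 63.2 CPM, among the early libraries and high in E28-ZZ, at 90.9 CPM, among the late ones. PBX3 in fibroblast-like cells was high in E21-ZZ, at 69.6 CPM, among the late libraries.

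In 8 of 20 tests a class's late minus early effect differed from the mean of the other 4 classes (edgeR, adjusted p under the 0.05 threshold), where 8.81% (chondrogenic), 12.1% (fibroblast), 11.5% (neural crest and glia), 12.7% (endothelial) and 9.45% (erythroid) of all genes were called. The values of a gene cancel out over the classes by construction, so these 20 tests are not independent. In fibroblast-like cells the difference was 1.91 for MEIS1, 1.74 for MEIS2 and 0.96 for MEIS3. In neural crest and glia-like cells it was -1.76 for MEIS2, -1.06 for PBX3 and 0.82 for MEIS3. In endothelial-like cells it was -1.66 for MEIS1, and in chondrogenic-like cells 0.73 for PBX3. Without the erythroid-gated cells of E18-ZZ, the MEIS3 value in neural crest and glia-like cells (0.71, adjusted p = 0.0591) and the PBX3 value in chondrogenic-like cells (0.67, adjusted p = 0.0775) missed the threshold, and the endothelial values of MEIS2 (-0.82, adjusted p = 0.041) and MEIS3 (-1.29, adjusted p = 0.0186) passed it.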

How the results depend on the processing

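Over 1253 recomputed values 1076 kept their direction and side of the threshold, 140 fell short of it, 34 passed it and 3 changed sign. None of the 3 had been called: MEIS3 in neural crest and glia-like cells against the other classes (-0.447 at a mitochondrial limit of 5%), MEIS1 late against early in fibroblast-like cells (-0.063 without both E16 libraries) and PBX3 in myocyte-like against myoblast-like cells (0.127 without both E28 libraries). Between successive stages there were 3 member calls, of MEIS3 from E16 to E18 and of PBX3 in both later steps. That number of calls was 7 with DESeq2's Wald test, 5 with no doublets removed and 0 without both E16 libraries. Without the E16 libraries, the E16 to E18 step with 1 of the 3 calls could not be fitted. The number of calls also moved when 1 library was left out. Within classes the 8 late against early calls became 4 at the 5% mitochondrial limit. There the endothelial-like comparison, with 3 of the 8 calls, was not fitted. The call lost at that limit was that of PBX3 in neural crest and glia-like cells. The number was 5 with a gate that asked for at least 2 more markers than any other class. It was 5 to 11 when 1 library was left out. Over all genes, the 5048 calls between late and early whole libraries ranged from 1338 (without both E16 libraries) to 6123, the 711 calls from E16 to E18 from 17 to 2145 (DESeq2), the 3198 from E18 to E21 from 373 to 4087, and the 1290 from E21 to E28 from 327 to 2298. The late against early calls ranged from 216 to 3000 in chondrogenic-like cells (2105 as reported), from 1015 to 4157 in fibroblast-like (3619), from 1146 to 3324 in neural crest and glia-like (2631), from 687 to 3068 in endothelial-like (2504) and from 4 to 2867 in erythroid-like cells (268). Against the other classes the calls ranged from 535 to 1603 in PAX3 progenitor-like (996), 681 to 3263 in myoblast-like (2689), 774 to 2541 in cardiac-like (2482), 111 to 393 in sclerotome-like (286), 1375 to 2946 in chondrogenic-like (2395), 643 to 1723 in lateral mesoderm-like (1459), 1302 to 4038 in neural progenitor-like (3559), 1750 to 3526 in neural crest and glia-like (3068), 1666 to 6637 in endothelial-like (6075), 2276 to 8616 in erythroid-like (3521) and 1400 to 3449 in epithelial-like cells (2758). In the myogenic steps they ranged from 243 to 631 for myoblast-like against PAX3 progenitor-like (361) and from 2135 to 5365 for myocyte-like against myoblast-like cells (4150). With library totals in place of the scaling, the median of all genes moved most between late and early erythroid-like cells, to -1.034, and to 0.205 between late and early whole libraries. For these counts the cause was not tested. The replicate number gave no pairs, since each group holds 1 library and all carry the same number. Breed was compared with the stage as a term and classes with the library as a term.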
